A study of Mus musculus with 25 samples.

Results

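The classical MHC class II genes, their accessory genes and the gene of their master regulator were followed across sorted dendritic cells and macrophages of the mouse Peyer's patch. The 9 genes were chosen by name: H2-Aa, H2-Ab1, H2-Eb1 and H2-Eb2 (chains of the peptide-presenting class II molecules), Cd74 (the invariant chain), H2-DMa, H2-Oa and H2-Ob (chains of the peptide-editing molecules DM and DO) and Ciita (the class II transactivator). All 9 had a value in all 7 groups of arrays, among 15054 genes that did so and 19938 genes with 1 symbol on the array. The choice was made with earlier results of these data known.

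Class II molecules are pairs of an alpha and a beta chain that carry peptides from endosomes to the cell surface, where CD4 T cells read them. In the endoplasmic reticulum the invariant chain fills the peptide groove and guides the pair to endosomes, where DM exchanges its last fragment for other peptides and DO restrains DM. CIITA binds no DNA of its own: it is recruited by a complex of RFX, CREB and NF-Y proteins on the X and Y boxes in front of class II, Cd74, DM and DO genes, and dendritic cells that mature are known to shut off Ciita while class II protein stays on their surface.

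Cells of all 7 groups were sorted after CD11c enrichment from Peyer's patches, the lymphoid tissue of the small intestine. They came from female wild-type C57BL/6 mice aged 6 to 8 weeks, with 42 mice pooled for each replicate. Untreated conventional dendritic cells (cDC) came as CD11b+ cDC (5 arrays), DN cDC (3 arrays, neither CD11b nor CD8a) and CD8a+ cDC (3 arrays). LysoMac, macrophages that share CD11c with dendritic cells, came untreated as TIM-4- LysoMac and TIM-4+ LysoMac (3 arrays each). CD11b+ cDC (3 arrays) and CD8a+ cDC (5 arrays) were also taken 9 h after gavage with R848, a ligand of TLR7. All mice shared the C57BL/6 background, which lacks a working H2-Ea gene, so that H2-Eb1 transcripts have no partner chain there. The sort itself used class II protein: cDC were gated as class II positive and both LysoMac groups as class II low. No vehicle-treated group was analysed here, so that R848 and gavage cannot be told apart.

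Values are log2 signals of the deposited table, in which 1 unit is a factor of 2. A signal depends on its probes, so levels were compared between groups for 1 gene and not between genes. H2-Aa, H2-Ab1, H2-Eb1 and Cd74 had means of 12.23 to 12.54 in untreated CD11b+ cDC, where the highest signal of an array was 13.15 to 13.35. Whether signals so near the top are compressed was not tested. Sizes of difference set side by side for several genes carry that limit. As a reference for background, the 95th percentile of 591 olfactory receptor genes lay between 4.26 and 4.51 in the 7 groups. The rows of the table had 3 different orders, 1 for each of 3 sets of arrays (untreated CD11b+, DN and LysoMac; untreated CD8a+; R848), and were aligned before any comparison. All 9 genes kept the same partner row when their own values were hidden from the alignment. Untreated CD8a+ cDC and the R848 arrays thus lie in sets of their own, and set cannot be told apart from group in comparisons that cross them. Macrophage markers were higher than in CD11b+ cDC for 7 of 8 genes in either LysoMac group, and of 6 cDC1 markers 5 were higher and 1, Batf3, lower in untreated CD8a+ than in CD11b+ cDC. In 2 groups of 5 arrays, replicates 4 and 5 stood apart: untreated CD11b+ replicates 4 and 5 correlated at 0.993 with each other and at 0.978 to 0.983 with the others, and R848 CD8a+ replicates 4 and 5 at 0.988 and 0.982 to 0.987. Results that turn on these arrays are given without them too.

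The class II promoters carry the letters through which the pathway works, and those of 4 members are shown because both boxes lie in front of their annotated start. The sequences and the positions are RefSeq's on GRCm38.p6, from the 250 bases before the start to the 50 after it, and 6 members had such an entry (H2-Ab1, Cd74 and Ciita had none). The search, chosen after the sequences were seen, took GCAAC (the core of the X box) and, 20 to 40 bases further on the same strand, GATTGG (the Y box, which holds the CCAAT element of NF-Y read backwards). Both cores are in capitals, and the lines run 5′ to 3′ on the gene's strand.
H2-Aa (chr17:34287857-34287914, minus strand): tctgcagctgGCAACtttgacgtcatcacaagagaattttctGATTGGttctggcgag
H2-Eb1 (chr17:34305766-34305822, plus strand): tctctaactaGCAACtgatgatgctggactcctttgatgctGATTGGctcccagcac
H2-Oa (chr17:34092293-34092350, plus strand): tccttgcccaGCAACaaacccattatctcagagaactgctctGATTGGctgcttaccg
H2-Ob (chr17:34238808-34238862, plus strand): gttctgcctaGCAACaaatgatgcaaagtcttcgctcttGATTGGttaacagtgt
The X core began 76 to 91 bases before the start in these 4 promoters, and the Y core followed 29 to 32 bases later. H2-Eb2 held the same pair at a distance of 31 bases, in a window that lies inside the annotated gene and is not printed. On either strand, 120 of 32851 promoters (0.365%) held the ordered pair, against 35.2% with GCAAC and 16.1% with GATTGG alone. Neither of 2 annotated starts of H2-DMa had the pair, which says only that these letters are not in those windows.

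Across the 7 groups the genes followed a few shared shapes, which the plot of all arrays shows. Both LysoMac groups came last for H2-Aa, H2-Ab1, H2-Eb1, Cd74, H2-Oa, H2-Ob, Ciita and H2-Eb2. For H2-DMa the R848 arrays of CD8a+ cDC were lowest by their mean. Ciita was ordered as CD11b+, DN and CD8a+ untreated cDC, which overlapped, then R848 CD11b+, R848 CD8a+, TIM-4- and TIM-4+ cells, each apart from the next. H2-Ob had the same order of steps, except that DN cDC came first and that the LysoMac groups overlapped. For H2-Oa the highest TIM-4+ LysoMac array and the lowest R848 CD8a+ cDC array both read 7.70, the 1 point of overlap between those groups, and the highest TIM-4- array (7.63) lay below. For H2-Ab1 R848 CD8a+ cDC overlapped with TIM-4- LysoMac. H2-Eb2 alone had its highest level in R848 CD11b+ cDC, followed by CD11b+ and DN cDC, which overlapped, and then by R848 CD8a+ and untreated CD8a+ cDC. H2-Ea, the class II alpha gene that this strain does not express, served as a negative reference and lay below the olfactory background in each group, at means of 3.53 to 4.07.

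**Figure D1:**
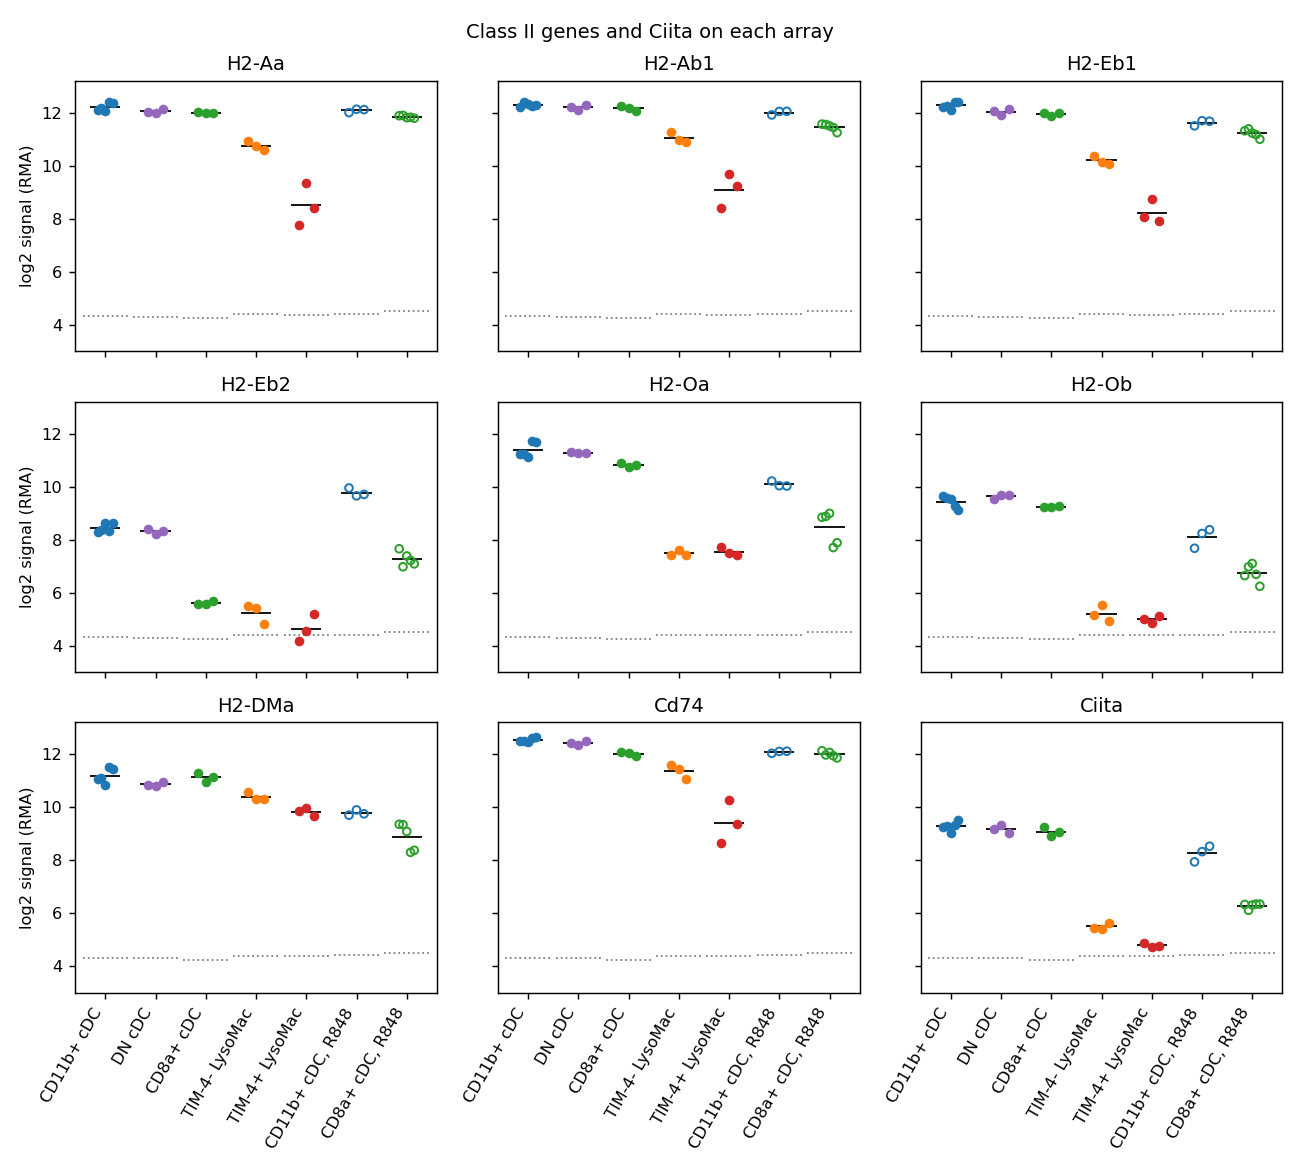
Log2 signal (RMA, vertical axis) of the 9 genes on each of 25 arrays, by group. Points are arrays (open after R848), black lines are group means, and dotted lines give the olfactory background of the group. H2-Aa in TIM-4+ LysoMac sits at 7.79 to 9.37, below every other group, and Ciita after R848 sits at 7.94 to 8.53 in CD11b+ and 6.11 to 6.35 in CD8a+ cDC.

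All 9 genes were lower in TIM-4- LysoMac than in CD11b+ cDC, in the direction of the sort, but by very unequal amounts of signal. Ciita was at 5.45, 5.43 and 5.65 in TIM-4- LysoMac and at 9.24, 9.28, 9.05, 9.32 and 9.51 in CD11b+ cDC. Every LysoMac array thus lay far below every cDC array, a 13.7-fold difference (-3.77 ± 0.12 log2, SE, limma adjusted p = 2.73e-16). H2-Ob (-4.23 ± 0.17) and H2-Oa (-3.90 ± 0.22), the DO chains, were lower by a similar amount, as was the beta chain gene H2-Eb2 (-3.21 ± 0.18). The alpha chain gene H2-Aa stood at 10.95, 10.76 and 10.59 against 12.10, 12.18, 12.08, 12.40 and 12.38, which is a 2.75-fold difference. H2-Ab1, its partner, was lower by 1.27 ± 0.17, H2-Eb1 by 2.07 ± 0.13 and Cd74 by 1.16 ± 0.20. The smallest difference was that of H2-DMa (-0.80 ± 0.20, adjusted p = 0.0050), and without CD11b+ replicates 4 and 5 it was -0.61 and missed the threshold (adjusted p = 0.0521), while by cyclic loess it was -0.51 (adjusted p = 0.0404). Here 24.6% of 16915 genes were called, 11.3% higher and 13.3% lower, against 9 of 9 lower. The median difference was -2.07 over the 9 genes and -0.01 over all genes. The groups did not overlap for 9 of 9 genes, against 24.6% of all genes.

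In TIM-4+ LysoMac all 9 genes were again lower than in CD11b+ cDC, where 26.3% of genes were called, 12.2% higher and 14% lower. The median difference was -3.80 over the 9 genes and -0.01 over all. Ciita was at 4.87, 4.75 and 4.76, only a little above the olfactory background, and 22.4-fold lower than in CD11b+ cDC. H2-Ob was lower by 4.44 ± 0.17, H2-Eb1 by 4.04 ± 0.13, H2-Oa by 3.85 ± 0.22 and H2-Eb2 by 3.80 ± 0.18, the last with 1 of 3 arrays (4.18) under the background. H2-Aa (-3.70 ± 0.20), H2-Ab1 (-3.21 ± 0.17) and Cd74 (-3.11 ± 0.20) were far lower than they were in TIM-4- LysoMac, and H2-DMa had the smallest difference (-1.36 ± 0.20). Both comparisons use the same CD11b+ arrays. Their SE rests on 1 spread shared by all 7 groups. For H2-Aa (SD 0.80), H2-Ab1 (0.65), Cd74 (0.80), H2-Eb1 (0.43) and H2-Eb2 (0.52) the TIM-4+ arrays spread more than any other group. The SE understates the spread of TIM-4+ LysoMac for these genes. TIM-4+ LysoMac and CD11b+ cDC did not overlap for any of the 9 genes, against 24.8% of all genes apart (11.4% higher and 13.4% lower). In sorted bulk samples, fewer cells that carry a transcript and less of it per cell cannot be told apart. Of 7 conventional DC markers, 5 were lower in either LysoMac group, and their part in the class II differences was not tested.

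**Figure D2:**
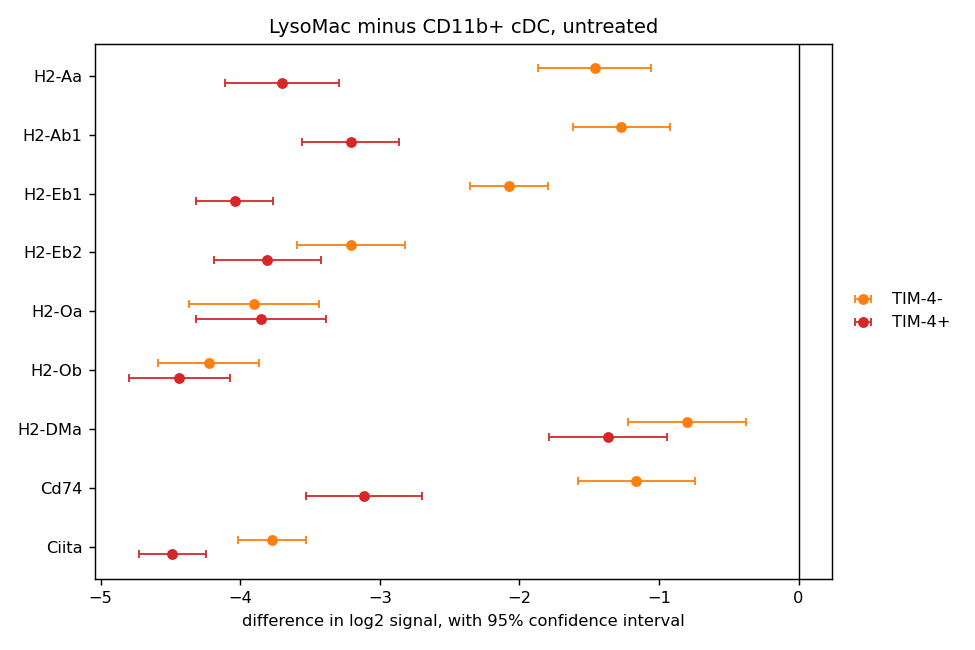
Difference in log2 signal from untreated CD11b+ cDC (horizontal axis, with 95% confidence interval from limma) for each of 9 genes in TIM-4- (orange) and TIM-4+ (red) LysoMac, 3 arrays each against 5. The intervals rest on 1 spread shared by all groups. Ciita, H2-Oa and H2-Ob lie at -3.77 to -4.49 in both, while H2-Aa moves from -1.46 to -3.70. Ciita (5.51 in TIM-4- and 4.79 in TIM-4+) and H2-Ob (5.21 and 4.99) were near the olfactory background (4.41 and 4.39). That limits how far they could fall. H2-Oa (7.49 and 7.54) and H2-Aa (10.77 and 8.53) were well above it.

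Between the LysoMac groups, H2-Aa, H2-Ab1, H2-Eb1, the invariant chain gene Cd74 and Ciita were lower in TIM-4+ cells, while H2-Eb2, H2-DMa and the DO chains were not called. Both populations were gated as class II low, so this contrast was not fixed by the class II gate. H2-Aa read 7.79, 9.37 and 8.43 on the TIM-4+ arrays and 10.95, 10.76 and 10.59 on the TIM-4- arrays. The TIM-4+ arrays differed widely from each other (SD 0.80 for H2-Aa, against 0.18 in TIM-4- arrays), yet all lay under the TIM-4- arrays. The SE and adjusted p given here rest on 1 spread shared by all 7 groups, which understates that of the TIM-4+ arrays. H2-Aa was 4.73-fold lower (-2.24 ± 0.22, adjusted p = 3.97e-06), and only 2 of 16915 genes had a larger absolute difference. H2-Ab1 read 8.40, 9.68 and 9.22 against 11.26, 10.96 and 10.89, a difference of -1.94 ± 0.19. Cd74 read 8.65, 10.26 and 9.37 against 11.59, 11.45 and 11.09, a difference of -1.95 ± 0.22. The order of the TIM-4+ arrays was the same for H2-Aa, H2-Ab1 and Cd74, with replicate 1 lowest and replicate 2 highest. H2-Eb1 was lower by 1.97 ± 0.15, and these 4 genes held ranks 3 to 6 by absolute difference.

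Ciita was also lower in TIM-4+ LysoMac, by 0.72 ± 0.13 (adjusted p = 0.00770), and without TIM-4- replicate 3 the difference was -0.65 with an adjusted p of 0.0658. H2-DMa differed by -0.56 ± 0.23 (adjusted p = 0.680) with no overlap, and H2-Eb2 by -0.60 ± 0.21 (adjusted p = 0.495) with overlap. H2-Oa (0.05, 95% interval -0.47 to 0.57) and H2-Ob (-0.21, -0.62 to 0.19) did not pass either, and those intervals leave room for modest differences. In TIM-4- and TIM-4+ cells, H2-Ob (means of 5.21 and 4.99) and H2-Eb2 (5.24 and 4.65) lay near the olfactory background (4.41 and 4.39). That limits how far they could fall. In all, 5 of 9 genes were called lower where 0.443% of genes were called, 0.177% higher and 0.266% lower. The median difference was -0.72 over the 9 genes. The groups did not overlap for 6 of 9, all lower, against 10.8% of all genes (5.02% higher and 5.74% lower). When only these 6 arrays entered the fit, 1 of the 9 genes kept its call: H2-Eb1, while adjusted p rose to 0.0854 for H2-Aa, 0.0809 for H2-Ab1, 0.179 for Cd74 and 0.0593 for Ciita. Of markers of other cells, 0 of 8 macrophage, 0 of 7 conventional DC and 0 of 6 B cell markers were called (limma; 0, 2 and 0 at an unadjusted p under 0.05). The summed level of the conventional DC list, as a mean over 6 markers, was 7.10 to 7.14 in TIM-4- and 6.77 to 7.09 in TIM-4+ LysoMac. Of cDC2 markers 1 of 7 was lower in TIM-4+ cells, the integrin gene Itgam (-1.39, adjusted p = 0.00143), and the mean of 6 was 7.19 to 7.32 in TIM-4- and 6.82 to 6.96 in TIM-4+ cells. Of plasmacytoid DC markers 1 of 6 was lower, Cox6a2 (-0.99, adjusted p = 0.0310), and the mean of 5 was 7.47 to 7.72 and 7.24 to 7.45. The part of these markers in the differences was not tested.

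Among untreated cDC groups, H2-Eb2 was the gene of the 9 with the largest difference. In DN against CD11b+ cDC, limma called 0 of 9 genes, with 0 at an unadjusted p under 0.05, where 4.26% of genes were called (2.5% higher and 1.76% lower). The differences ran from -0.32 (H2-DMa, 95% interval -0.74 to 0.10) to 0.21 (H2-Ob, -0.15 to 0.57), and the groups overlapped for every gene, where 9.69% of genes did not (4.3% higher and 5.39% lower). Of 9 stromal and endothelial markers 8 were higher in DN cDC, and their part was not tested. Of all genes called 58.8% were higher, and 39.6% with all arrays at 1 median and 61.0% by cyclic loess.

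H2-Eb2, a little studied beta chain gene beside H2-Eb1, was far lower in CD8a+ cDC. It read 5.58, 5.56 and 5.70 in CD8a+ cDC, 8.30, 8.37, 8.62, 8.33 and 8.62 in CD11b+ cDC and 8.39, 8.22 and 8.34 in DN cDC. The CD8a+ arrays lay apart from all others, and the difference was 7.16-fold from CD11b+ cDC (-2.84 ± 0.18, adjusted p = 7.27e-11) and 6.53-fold from DN cDC (-2.71 ± 0.21, adjusted p = 1.28e-09). Against CD11b+ cDC, 4 of 9 genes were called lower, where 47.3% of genes were called, 8.58% higher and 38.8% lower, so the count is close to the background. The other 3 were H2-Oa (-0.59 ± 0.22), Cd74 (-0.51 ± 0.20) and H2-Eb1 (-0.33 ± 0.13). These 3 depended on single arrays: H2-Eb1 and Cd74 missed the threshold in 7 of 8 fits with 1 array left out (all but CD11b+ replicate 3), at adjusted p of 0.0519 to 0.134 and 0.0528 to 0.122. H2-Oa missed it in 5, those without CD11b+ replicate 4 or 5 or any CD8a+ array (0.0637 to 0.106). Without CD11b+ replicates 4 and 5 together, only H2-Eb2 was called. The median of all genes was itself -0.19 here, and of the genes called 18.1% were higher, but 64.0% with the arrays shifted to 1 median and 49.5% by cyclic loess. Either scaling left H2-Eb2 as the 1 called gene and turned H2-Aa, H2-Ab1, H2-Ob, H2-DMa and Ciita, none of them called, to small positive values. H2-Ea, which is at background, was called lower too (-0.26 ± 0.10), also against DN cDC (-0.53 ± 0.12, adjusted p = 0.000875), and higher after R848 in CD8a+ cDC (0.39 ± 0.10, adjusted p = 0.00305), all across array sets. The groups did not overlap for 5 of 9 genes, against 43.8% of all genes (7.85% higher and 35.9% lower).

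Against DN cDC, H2-Eb2 was the 1 of 9 genes called, where 42.5% of genes were called, 9.54% higher and 33% lower. The groups were apart for 4 of 9, against 58.5% of all genes (14.9% higher and 43.6% lower). Of the genes called, 22.4% were higher, and 73.5% and 49.4% under the other scalings. After scaling to a common median H2-DMa was also called, as higher (0.59, adjusted p = 0.0385). Markers of other cells were lower in CD8a+ cDC in both comparisons. Against CD11b+ cDC this held for 4 of 5 T cell, 4 of 5 plasmacytoid DC, 5 of 8 macrophage, 6 of 6 cDC2 and 3 of 6 plasma cell markers. Against DN cDC it held for 8 of 8 stromal and endothelial, 6 of 6 epithelial, 4 of 5 T cell, 4 of 5 plasmacytoid DC, 6 of 8 macrophage and 5 of 6 cDC2 markers. The mean T cell marker level was 4.20 to 4.44 in CD8a+ cDC, with Cd3g and Lat at background, 5.64 to 6.40 in CD11b+ and 6.56 to 6.77 in DN cDC. The macrophage mean was 5.22 to 5.48 in CD8a+ and 6.86 to 7.54 in CD11b+ cDC, and the stromal mean 3.93 to 4.03 in CD8a+ and at least 6.25 in DN cDC. The part of these markers in the H2-Eb2 and other class II differences was not tested.

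At 9 h after R848 the class II pathway of CD11b+ cDC split: the regulator and the peptide editors fell, H2-Eb2 rose, and H2-Aa, H2-Ab1 and Cd74 were not called. Ciita read 7.94, 8.33 and 8.53 after R848 and 9.05 to 9.51 untreated, with no overlap, and fell 2.02-fold (-1.01 ± 0.12, adjusted p = 5.92e-07). H2-DMa read 9.70, 9.90 and 9.75 against 11.08, 11.09, 10.85, 11.53 and 11.44, a fall of 2.66-fold (-1.41 ± 0.20). H2-Ob fell by 1.34 ± 0.17 and H2-Oa by 1.31 ± 0.22. Of the presenting chains only H2-Eb1 fell (-0.65 ± 0.13, adjusted p = 0.000567). H2-Aa differed by -0.14 (95% interval -0.55 to 0.27), H2-Ab1 by -0.30 (-0.65 to 0.05) and Cd74 by -0.45 (-0.87 to -0.03, adjusted p = 0.0774), none of them called. H2-Eb2 read 9.95, 9.65 and 9.70 after R848, above every untreated array, and rose 2.49-fold (1.32 ± 0.18, adjusted p = 8.16e-06).

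In CD11b+ cDC, 1 of 9 genes was called higher and 5 lower, where 40.9% of 16915 genes were called, 17.5% higher and 23.5% lower. The groups did not overlap for 8 of 9, against 37.8% of all genes (16.6% higher and 21.2% lower). The median difference was -0.65 over the 9 genes and -0.03 over all. In a fit on these 8 arrays alone H2-Ab1 (adjusted p = 0.0143) and Cd74 (0.00210) were called lower too. Of all genes called 42.7% were higher, and 62.2% with all arrays at 1 median and 51.7% by cyclic loess, both of which kept the count of 6 with the same split. In the same arrays 6 of 6 B cell markers were higher, from 0.87 (Blk) to 2.74 (Ms4a1), and the mean of 5 B cell markers was 6.87 to 7.66 against 5.36 to 5.97 untreated. B cells express class II, DO and Ciita genes too. The part of B cell RNA in these differences was not tested. Among cDC2 markers 5 of 7 were lower and 1 higher.

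In CD8a+ cDC Ciita and the editing chains H2-Oa, H2-Ob and H2-DMa fell after R848, and Ciita fell the most of the 9 genes. Ciita read 6.33, 6.11, 6.31, 6.35 and 6.35 after R848 and 9.24, 8.91 and 9.07 untreated. The treated arrays lay close together and far below the untreated ones, a 6.87-fold fall (-2.78 ± 0.12, adjusted p = 3.36e-14). H2-Ob read 6.64, 6.97, 7.10, 6.69 and 6.24 against 9.24, 9.23 and 9.27, a fall of 5.74-fold (-2.52 ± 0.17). H2-Oa read 8.84, 8.87, 8.99, 7.70 and 7.88 against 10.90, 10.73 and 10.80, a fall of 5.10-fold (-2.35 ± 0.22). H2-DMa read 9.36, 9.34, 9.09, 8.30 and 8.38 against 11.30, 10.95 and 11.14, a fall of 4.72-fold (-2.24 ± 0.20). For H2-Oa and H2-DMa the treated replicates 4 and 5 lay under replicates 1 to 3, and no treated array reached an untreated one.

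The presenting chains of CD8a+ cDC moved less in signal. H2-Ab1 fell by 0.70 ± 0.17 (adjusted p = 0.00149) and H2-Eb1 by 0.72 ± 0.13 (adjusted p = 0.000132). H2-Aa differed by -0.16 (95% interval -0.56 to 0.25) and Cd74 by -0.03 (-0.45 to 0.38), neither called. H2-Eb2 read 7.65, 6.98, 7.38, 7.21 and 7.09 after R848 against 5.58, 5.56 and 5.70, and rose 3.14-fold (1.65 ± 0.18, adjusted p = 2.29e-07). In all, 1 of 9 genes was higher and 6 lower, where 56% of 16928 genes were called, 41.1% higher and 14.9% lower, with a median of all genes of 0.18. The groups did not overlap for 8 of 9, against 56.4% of all genes (41.7% higher and 14.7% lower). The median difference was -0.72 over the 9 genes. Of all genes called 73.4% were higher, and 54.4% and 51.2% under the other scalings, which kept the count of 7 with 1 higher and 6 lower. Without R848 CD8a+ replicates 4 and 5 the count was also 7. Of 8 B cell markers 4 were higher, and the mean of 5 of them was 5.65 to 6.48 against 4.30 to 4.92 untreated, where Cd79a, Pax5, Cr2 and Fcer2a were at background. Of 9 cDC1 markers 7 were lower and 1 was higher, and the mean of 6 fell from 9.95 to 10.06 untreated to 7.54 to 7.86. Their part in the class II differences was not tested.

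**Figure D3:**
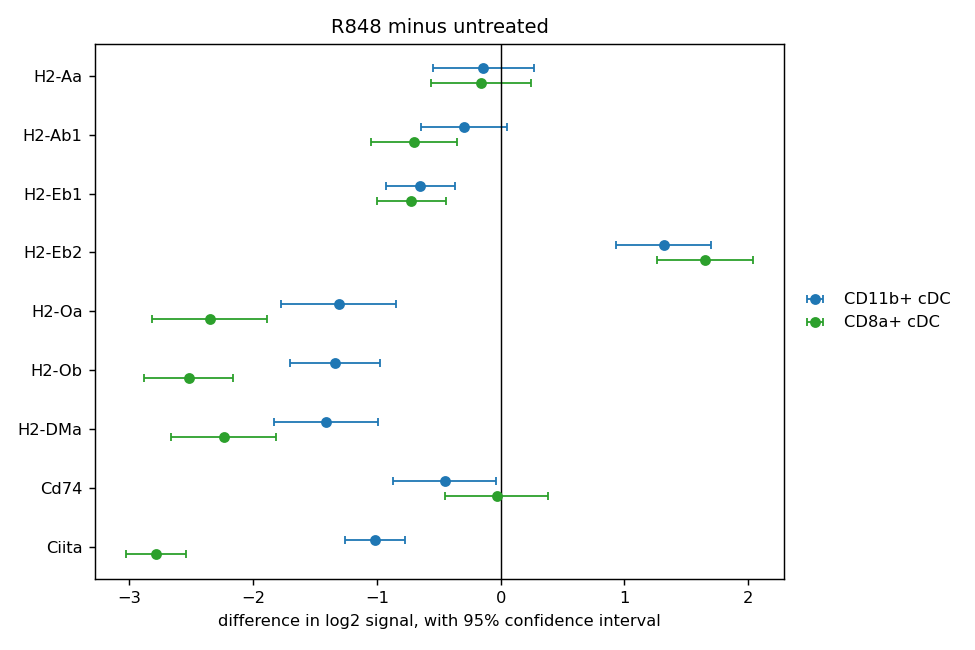
Difference in log2 signal after R848 (horizontal axis, with 95% confidence interval from limma) for each of 9 genes in CD11b+ cDC (blue, 3 treated and 5 untreated arrays) and CD8a+ cDC (green, 5 treated and 3 untreated). H2-Eb2 lies to the right of 0 in both, Ciita at -1.01 and -2.78, and the H2-Aa intervals cross 0.

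The fall of Ciita and of the editing chains was larger in CD8a+ than in CD11b+ cDC. Tested as an interaction over the same 16 arrays, the response of CD8a+ cDC was lower by 1.77 ± 0.16 for Ciita (adjusted p = 1.14e-07), by 1.18 ± 0.25 for H2-Ob (adjusted p = 0.00109) and by 1.04 ± 0.32 for H2-Oa (adjusted p = 0.0158). H2-DMa followed with -0.83 ± 0.29 (adjusted p = 0.0319), but it missed the threshold in 6 of 16 fits with 1 array left out, at adjusted p of 0.0534 to 0.0852. Those were the fits without CD11b+ replicate 3, CD8a+ replicates 1 or 3, R848 CD11b+ replicates 2 or 3 or R848 CD8a+ replicate 5. Without R848 CD8a+ replicates 4 and 5 the H2-DMa value was -0.46 (adjusted p = 0.0841), and that of H2-Oa was -0.60 and kept its call (adjusted p = 0.0156). The responses of H2-Aa (-0.02, 95% interval -0.59 to 0.56), H2-Ab1 (-0.40, -0.89 to 0.09), H2-Eb1 (-0.07, -0.47 to 0.32), H2-Eb2 (0.33, -0.21 to 0.88) and Cd74 (0.42, -0.17 to 1.01) were not called different. The 4 of 9 lower compare with 32.8% of 15054 genes called and 6.04% called lower (26.8% higher), and with a median of all genes of 0.21. Of all genes called 81.6% had the higher response in CD8a+ cDC, and 43.2% and 49.0% under the other scalings. Ciita, H2-Oa, H2-Ob and H2-DMa were called lower under both, where 12.4% and 11.9% of all genes were called lower. In a fit on these 16 arrays alone the H2-DMa call was lost (adjusted p = 0.0704), while H2-Ab1 (-0.40, adjusted p = 0.0147) and Cd74 (0.42, adjusted p = 0.00735) were called. With replicate numbers as a block in the fit, the calls of H2-Oa (adjusted p = 0.115) and H2-DMa (0.161) were lost. Cell markers differed in their response too. Of 6 cDC1 markers 5 were lower and 1 higher (median -1.85), of 6 cDC2 markers 6 were higher (median 2.10), of 5 T cell markers 4 were higher and 1 lower (median 1.98), and of 5 B cell markers 1 was higher and 1 lower (median -0.85). Their part in the difference of response was not tested.

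After R848 the subsets differed in Ciita and the editing chains, besides H2-Eb2. Ciita was 3.93-fold lower in CD8a+ than in CD11b+ cDC (-1.97 ± 0.12, adjusted p = 6.43e-11), against -0.21 ± 0.12 (not called) untreated. H2-Oa (-1.63 ± 0.22), H2-Ob (-1.36 ± 0.17) and H2-DMa (-0.89 ± 0.20) were lower as well, as was H2-Eb2 (-2.51 ± 0.18). Without R848 CD8a+ replicates 4 and 5 the H2-DMa difference was -0.52 (adjusted p = 0.0236), and in a fit on these 8 arrays alone its call was lost (adjusted p = 0.0735). H2-Ab1 was lower by 0.54 ± 0.17 (adjusted p = 0.0345), and that call was lost without any 1 of the 3 R848 CD11b+ arrays or without R848 CD8a+ replicate 4 or 5 (adjusted p of 0.0572 to 0.122), and with all arrays at 1 median (0.0520). H2-Eb1 was just outside the threshold (-0.41 ± 0.13, adjusted p = 0.0504) and was called under 5 alternatives, among them cyclic loess (adjusted p = 0.0347) and the fit on these arrays alone (0.0327). H2-Aa and Cd74 were not called, though H2-Aa was on these arrays alone (-0.24, adjusted p = 0.0420). Of 9 genes 6 were lower, where 12.5% of 19938 genes were called, 5.71% higher and 6.76% lower. The groups were apart for 8 of 9, all lower, against 16.9% of all genes (8.95% higher and 8% lower). All arrays of this comparison lie in 1 array set with the table's own row order. B cell markers were lower in CD8a+ cDC for 8 of 9 genes, from -0.73 (Blk) to -1.63 (Fcrla), and their part was not tested.

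**Figure D4:**
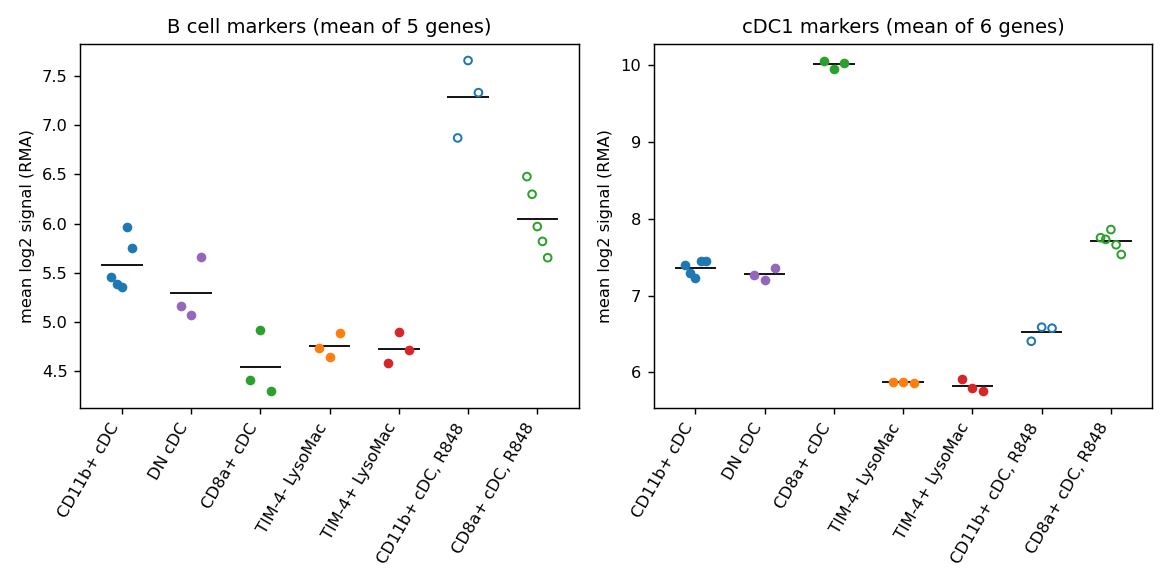
Mean log2 signal (RMA, vertical axis) over B cell markers (left, 5 genes) and cDC1 markers (right, 6 genes) with a value in all 7 groups, by group. Points are arrays (open after R848) and lines are group means. B cell markers reach 6.87 to 7.66 in CD11b+ cDC after R848, and cDC1 markers of CD8a+ cDC drop from 9.95 to 10.06 untreated to 7.54 to 7.86 after R848.

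Counts of pathway genes after R848 are to be read against the shares of all genes given above, 17.5% higher and 23.5% lower in CD11b+ cDC (median -0.03) and 41.1% higher and 14.9% lower in CD8a+ cDC (median 0.18). The CD8a+ shares were 22.1% and 21.0% by cyclic loess.

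The transcription factors and regulators around Ciita moved in both directions. Among 19 transcription factors and regulators of class II genes measured in CD11b+ cDC, 8 rose and 3 fell after R848 (list median 0.19). Prdm1, the repressor BLIMP-1 that can silence Ciita, rose by 2.06 ± 0.36, Irf1, an activator of the Ciita promoter that responds to interferon gamma, rose by 1.55 ± 0.16, and Spi1, the myeloid factor PU.1, fell by 0.92 ± 0.11. In CD8a+ cDC 8 of 17 rose and 2 fell (list median 0.26), close to the share of all genes as deposited. Under either other scaling 8 of 17 rose and 3 fell, where 23.4% and 22.1% of all genes rose. As deposited, Irf1 was at 2.36 ± 0.16, Irf4 at 2.09 ± 0.19 and Prdm1 at 1.92 ± 0.36. After R848 3 of 6 plasma cell markers were higher and 1 lower in either subset. The mean of these 6 was 6.37 to 7.39 against 5.65 to 6.59 untreated in CD11b+ cDC. In CD8a+ cDC it was 5.79 to 6.93 against 5.09 to 5.72. The part of plasma cell RNA in the Prdm1 differences was not tested. Rfx5, the large subunit of RFX, differed by -0.02 in CD11b+ and 0.01 in CD8a+ cDC, neither called. In LysoMac the same list leaned lower: 11 of 19 lower and 2 higher in TIM-4- and 13 lower and 1 higher in TIM-4+ cells than in CD11b+ cDC, where 13.3% and 14% of all genes were lower, with Irf8 higher (1.76 and 1.96), Irf4 lower (-1.64 and -1.89), Rfx5 lower (-0.74 and -0.48) and Nfyb, a subunit of NF-Y, lower (-0.71 and -0.92). Between the LysoMac groups limma called 0 of these 19 genes, with 1 at an unadjusted p under 0.05.

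Of the interferon gamma signalling genes that lead to Ciita, the receptor chain gene Ifngr1 fell after R848 (-2.13 in CD11b+ and -2.92 in CD8a+ cDC), while Irf1 and the kinase gene Jak2 (0.56 and 0.78) rose in both. In all, 3 of 6 rose and 3 fell in CD11b+ cDC (list median 0.03; 1 fell with all arrays at 1 median), and 2 of 7 rose and 1 fell in CD8a+ cDC (0.23). Of the endosomal processing genes, 8 of 9 rose and 0 fell in CD8a+ cDC after R848 (list median 0.70), or 6 of 9 with all arrays at 1 median and 6 of 8 by cyclic loess, led by the asparagine endopeptidase gene Lgmn (4.85), the protease gene Ctsd (1.47) and Sppl2a (1.02), whose product clears the stub of the invariant chain. In CD11b+ cDC 2 of 9 rose (list median 0.09; 4 of 8 by cyclic loess), Lgmn (1.19) and Sppl2a (0.71). In LysoMac 5 of 9 were higher and 2 lower than in CD11b+ cDC in either group, with Ctsd at 4.10 and 4.23, Ctsb at 1.96 and 2.12 and Lgmn at -2.56 and -1.75.

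Genes of class II surface turnover were mixed. After R848 2 of 9 rose and 3 fell in CD11b+ cDC (list median 0.18), near the shares of all genes, with the tetraspanin genes Cd81 at 2.35, Cd82 at -2.12 and Cd9 at -1.75, and 2 of 9 rose and 4 fell in CD8a+ cDC, with Cd63 at 3.33, Cd82 at -3.13 and Cd9 at -0.56. The list median in CD8a+ cDC was 0.29 as deposited and -0.22 by cyclic loess, where 0 of 8 rose and 4 fell. In LysoMac Cd81 was higher (4.28 and 4.42) and Cd83, which stabilises class II on the surface, lower (-3.44 and -3.07), among 3 of 9 higher and 2 lower in TIM-4- and 3 higher and 3 lower in TIM-4+ cells. Of the genes listed under co-stimulation, 5 of 6 rose in CD8a+ cDC (list median 1.78) and 1 fell. The largest rises were those of the PD-1 ligand genes Pdcd1lg2 (2.90) and Cd274 (2.63), whose products inhibit T cells. The ICOS ligand gene Icosl (2.19) followed, so the counts of this list are not counts of co-stimulation alone. In CD11b+ cDC 3 of 7 rose and 2 fell (list median 0.30; 0 fell with all arrays at 1 median), with Icosl at 0.84, Cd86 at -0.63 and Cd274 at 0.45. Genes of the class I pathway, which loads peptides for CD8 T cells, rose for 3 of 9 in CD11b+ cDC (list median 0.25). In CD8a+ cDC 5 of 9 rose (0.56), not far from the share of all genes as deposited. Under either other scaling 5 of 9 rose there too, where 23.4% and 22.1% of all genes rose. None of the 9 was called lower as deposited, and 1 was in CD8a+ cDC under either other scaling. The peptide transporter genes were Tap1 at 1.15 and 0.97 and Tap2 at 0.68 and 0.72.

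Over the 7 group means 7 of the 9 genes fell into 2 sets of like shape, given as a description, since the 7 groups share tissue and, in part, array sets. H2-Aa, H2-Ab1, H2-Eb1 and Cd74 correlated with each other at 0.980 to 0.992, and Ciita, H2-Oa and H2-Ob at 0.989 to 0.992, while Ciita correlated with H2-Eb1 at 0.904, with H2-Ab1 at 0.882 and with H2-Aa at 0.818. H2-Eb2 and H2-DMa were in neither set, with highest correlations of 0.720 (H2-Eb2 with H2-Aa) and 0.653 (H2-DMa with H2-Oa), and of 0.00458 with each other. Among 1509 genes whose group means spanned at least 2 log2 units, Kmo (0.996), Pld4 (0.991), Mbnl3 (0.983), Gsdme (0.981) and Eps8 (0.981) were most like Ciita. The shape of H2-Ab1 was closest to Jaml (0.948), Cks2 (0.944), Pim1 (0.937), Adgre5 (0.931) and Gm10684 (0.931).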

How the data were processed

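Cells of 7 groups were hybridised to 25 Affymetrix Mouse Gene 1.0 ST arrays after amplification of 2 to 20 ng of RNA, per the labels' protocols. The deposited values are log2 signals made by the authors with RMA in Affymetrix Expression Console 1.4.1, per the submitters' processing notes. The genome build of the probe annotation is not given in the sources used here, nor whether all arrays were normalized together. Arrays carry no read depth, and their number limits the precision. The series design calls the replicates independent.

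Rows of the table fitted their identifiers only in the 8 R848 arrays. The 14 untreated CD11b+, DN and LysoMac arrays and the 3 untreated CD8a+ arrays were aligned to them with a monotone hidden Markov alignment (Python 3.11.15, NumPy 2.4.6, Numba 0.67.0). Rows were accepted where 3 settings named 1 partner at a posterior of at least 0.95, a limit set after the data were seen. This kept 23219 (80.2%) and 23519 (81.3%) of 28939 rows, and 6617 rows before the first annotated one were left out. Both transcript clusters of a gene then correlated at 0.844 and 0.832, against 0.101 and 0.0227 before and 0.832 in the R848 arrays. The alignment was also tried in 3 simulated runs, each with 500 rows deleted and 500 inserted. Wrong partners there made up no more than 0.440% of the rows it accepted. Among simulated rows with a large difference in signal, no fewer than 67.8% were kept, against no fewer than 85.4% of all simulated rows. These rates describe the simulated rows only. Whether such losses lowered the shares of all genes called across array sets was not tested. The share of wrong partners between untreated and R848 arrays was not measured.

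Genes with 1 symbol took the cluster present on most arrays and, among those, the one with the highest mean. Differences of group means were fitted with limma 3.58.1 (R 4.3.3) on all 25 arrays, and genes were called at a Benjamini-Hochberg adjusted p under 0.05 over all genes tested, with errors as SE and intervals at 95%. Tested on simulated data with 200 changed genes for TIM-4+ against TIM-4- LysoMac, 90 of 100 genes changed 2-fold and 99 of 100 changed 4-fold were recovered, with 16 false calls among 15054 genes. The simulated noise of a gene had the same spread in all groups. The rates therefore do not cover genes that spread more in 1 group, as H2-Aa did in TIM-4+ LysoMac. Named were the 9 genes in every comparison, up to 3 called genes of largest difference per pathway list, and the 5 genes most like Ciita and H2-Ab1. Values of such genes in other comparisons (Rfx5 after R848, for example), Batf3, Itgam, Cox6a2 and single B cell markers were chosen after they were seen. The genes and lists were chosen with earlier results of these data known.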

Additional observations from a re-analysis of the deposited data

Results flagged for a closer look

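Among the 18 sets of 5 arrays tested (9 genes in untreated CD11b+ and in R848 CD8a+ cDC), 1 had an array far from the others: Ciita in R848 CD8a+ replicate 2 was at 6.11, and its gap to the next array was 0.845 of the group's range, above the critical value of 0.71. Chance flags about 1 in 20 such sets. The whole group spans little, 6.11 to 6.35.

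The R848 response was called different between CD8a+ and CD11b+ cDC for 4 of the 9 genes by the interaction test. These were Ciita (-1.77), H2-Ob (-1.18), H2-Oa (-1.04) and H2-DMa (-0.83), each lower in CD8a+ cDC. Of all genes 32.8% were called, 26.8% higher and 6.04% lower. The H2-DMa call was lost in 6 of 16 fits with 1 array left out. With the replicate block the calls of both H2-Oa and H2-DMa were lost.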

How the results depend on the processing

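Signal near background and 3 to 5 arrays a group limit each test; 3 alternatives (genes in all 7 groups, and arrays 4 and 5 of untreated CD11b+ or R848 CD8a+ cDC left out) were added after the data were seen. The 9 of 9 lower genes in either LysoMac group, and 6 and 7 called after R848 in CD11b+ and CD8a+ cDC, held under both scalings, the replicate block and each array left out; without CD11b+ arrays 4 and 5 the TIM-4- count was 8, and fits on the compared arrays alone gave 8 and 8 after R848. The causes of the changes below were not tested.

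With a common median, values that were not called turned positive against CD11b+ cDC in untreated CD8a+ cDC (H2-Aa 0.052, H2-Ab1 0.13, H2-Ob 0.090, H2-DMa 0.21, Ciita 0.068; 1 gene called in place of 4) and against DN cDC (H2-Aa 0.28, H2-Ab1 0.29, H2-Eb1 0.24, Ciita 0.23; 2 called in place of 1). Cyclic loess gave, against CD11b+ cDC, H2-Aa 0.13, H2-Ab1 0.21, H2-Eb1 0.0029, H2-Ob 0.035, H2-DMa 0.23 and Ciita 0.010 with 1 gene called, against DN cDC H2-Aa 0.15, H2-Ab1 0.15, H2-Eb1 0.096 and Ciita 0.053, and for DN against CD11b+ cDC H2-Ab1 0.052 and Cd74 0.040. It also called H2-Ab1 in the interaction (-0.76, adjusted p = 0.0197).

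On the compared arrays alone, 1 of 9 and 27 genes in all were called between the LysoMac groups (75 before), 334 genes for DN against CD11b+ cDC (720 before) and 4 of 9 for CD8a+ against DN cDC. The level filter (highest group mean of at least 6) left 445 genes for DN, 3329 and 3037 for CD8a+ against CD11b+ and DN cDC, 3923 and 4266 after R848 in CD11b+ and CD8a+ cDC and 2387 in the interaction, with fewer genes tested. Same-numbered arrays did not deviate together in the median (correlation -0.02 over 65 pairs, single pairs from -0.23 to 0.18). The labels do not say whether equal numbers were paired, and this median cannot show it. With the replicate block 430 genes were called for DN, 2 of 9 for CD8a+ against CD11b+ cDC, 2 of 9 against DN cDC and 2 of 9 in the interaction (H2-Oa -0.80, adjusted p = 0.115, and H2-DMa -0.65, 0.161, were lost).

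Without CD11b+ arrays 4 and 5, H2-Oa was 0.076 in DN and H2-DMa 0.13 in CD8a+ cDC, with 1 gene called in the latter. Without R848 CD8a+ arrays 4 and 5, Cd74 was 0.030 after R848 in CD8a+ cDC, and the interaction was 0.0040 for H2-Aa and 0.019 for H2-Eb1. With 1 array left out, genes called ran from 44 to 80 between the LysoMac groups (44 without TIM-4- replicate 1) and from 476 to 933 for DN (476 without DN replicate 2), and members called from 1 to 4 for CD8a+ against CD11b+ cDC. Values not called that crossed 0 were H2-DMa in CD8a+ against CD11b+ cDC (-0.15 to 0.023), H2-Ab1 against DN cDC (-0.094 to 0.00082), H2-Oa between the LysoMac groups (-0.029 to 0.12), Cd74 after R848 in CD8a+ cDC (-0.080 to 0.0011) and H2-Aa in the interaction (-0.061 to 0.018).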
